A study of Mus musculus with 12 samples.

Results

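The genes described here are 10 genes of the unfolded protein response, the program that cells switch on when unfolded protein collects in the endoplasmic reticulum (ER). They were taken from a list, Hspa5, Ddit3, Xbp1, Atf4, Atf3, Trib3, Herpud1, Sdf2l1, Dnajb9 and Chac1, and no measured value enters the rule, though earlier results of these data were known when the list was made. All 10 were found among the 31053 genes counted in each of the 12 libraries. They were followed in classes of cells defined by marker genes, in 2 depots of white fat and in 3 groups of male mice aged 12 weeks.

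Each library was a single-cell RNA library of the stromal vascular fraction (SVF), the cells that stay after fat is digested with collagenase and the floating adipocytes are taken off. It came from epididymal (eWAT) or inguinal (iWAT) white adipose tissue. WT-Veh stands for lean C57BL/6J mice and ob/ob-Veh for obese mice homozygous for the ob mutation of the leptin gene Lep, and both were given vehicle, methylcellulose in medium. ob/ob-Rosi stands for ob/ob mice gavaged with 30 mg/kg rosiglitazone (Rosi), an agonist of the nuclear receptor PPARγ, for 3 days. Every tissue carries the ob mutation, so loss of leptin and obesity cannot be told apart here. Each depot held 2 libraries per group, labelled replicates 1 and 2.

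Of 139755 barcodes, 126095 passed the filters on cells, with 6472 to 17500 cells and 19593940 to 66315901 UMIs per library (a UMI tags a captured RNA molecule, so PCR copies of it are counted once). Median UMIs per cell ran from 1132 to 4961 and median mitochondrial shares from 2.17% to 9.05%. At most 99 barcodes, or 1.05% of the smaller library, were shared by a pair of libraries. A class name was given to 47717 of 57613 eWAT cells and 58013 of 68482 iWAT cells. In iWAT WT-Veh it was given to only 43.2% of the cells of replicate 1, against 98.8% in replicate 2. Large unnamed clusters there held 7903 and 1758 WT-Veh cells over both replicates.

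The labels were set beside the contents of the libraries. Cells like lipid-associated macrophages (LAM-like), known to collect in obese fat, made up 22.4% and 17.0% of eWAT cells under the label WT-Veh, 0.426% and 0.813% under ob/ob-Veh, and 23.1% and 20.9% under ob/ob-Rosi. In iWAT they made up 4.06% and 4.13%, then 0.444% and 0.153%, then 8.03% and 4.33%. Cells that left with the floating layer were not sequenced, so these are shares of the SVF alone and do not check the labels. Whether every label sits on its own library was not tested. The ob mutation leaves the Lep transcript in place, so finding Lep UMIs under an ob/ob label does not check the genotype. What their level says of the labels was not tested. Lep UMIs per 100 UMIs of Adipoq, another adipocyte transcript, were 28.0 and 42.5 in eWAT under WT-Veh, 3.95 and 16.2 under ob/ob-Veh, and 240 and 390 under ob/ob-Rosi. In iWAT they were 20.1 and 31.6, then 36.4 and 15.1, then 164 and 141, and there the WT-Veh values lay between those of ob/ob-Veh. These ratios rest on 11 to 265 Adipoq UMIs a library. Group names below are those on the labels. The ob/ob effect sets the ob/ob-Veh libraries against WT-Veh, the Rosi effect compares ob/ob-Rosi with ob/ob-Veh, so each rests on the same ob/ob-Veh libraries. In eWAT, libraries of the same replicate number deviated together from their group means. The labels do not give this pairing and the data did not single it out. A fit with the replicate number as a block is given beside each eWAT result whose call it changes.

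The unfolded protein response starts at sensors in the ER membrane. IRE1 splices the Xbp1 transcript into its active form, ATF6 is cut to release a transcription factor, and PERK slows translation while letting Atf4 be translated. These factors raise ER chaperones and degradation proteins, and ATF4 with its targets can turn the response toward cell death. Secretory cells such as plasma cells depend on the pathway, and ER stress has been described in obese fat. Splicing and translation are not seen in UMI counts of whole genes.

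Promoter stretches of 4 members are shown because they hold motifs through which these factors are known to act. They are from RefSeq on GRCm38.p6, where 10 of 10 members matched a window of 250 bases before to 50 bases after the gene start, and capitals mark motifs found on either strand. In Hspa5, at chr2:34772020-34772048 on the plus strand, capitals mark an ER stress response element (ERSE: CCAAT, 9 bases, CCACG), known to bind ATF6 and XBP1. In Herpud1, at chr8:94386259-94386427 on the plus strand, they mark ERSE-II (ATTGG, 1 base, CCACG) and 2 composite sites for ATF4 and C/EBP factors (TTGC, 1 base, TCA). In Atf3, at chr1:191183396-191183483 on the minus strand, and Chac1, at chr2:119350992-119351096 on the plus strand, they mark composite sites.
Hspa5: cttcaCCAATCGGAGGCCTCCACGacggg
Herpud1: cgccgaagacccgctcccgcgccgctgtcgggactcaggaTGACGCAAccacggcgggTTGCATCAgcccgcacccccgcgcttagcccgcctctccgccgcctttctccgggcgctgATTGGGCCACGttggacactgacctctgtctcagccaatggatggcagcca
Atf3: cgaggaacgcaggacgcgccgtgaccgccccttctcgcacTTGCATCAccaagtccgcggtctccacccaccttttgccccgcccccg
Chac1: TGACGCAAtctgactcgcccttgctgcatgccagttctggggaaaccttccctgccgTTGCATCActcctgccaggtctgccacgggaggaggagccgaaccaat
Among 32851 promoters of this length, 0.119% held an ERSE, 0.0365% an ERSE-II and 3.69% a composite site. Of the members, 1 held an ERSE (Hspa5, 65 bases before the start), 1 an ERSE-II (Herpud1, 52 bases before) and 4 a composite site (Atf3, Chac1, Herpud1 and Dnajb9). The element UPRE (TGACGTGG) was in 0.676% of all promoters and in no member. A match says only that these letters stand in the window.

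Levels are given as CPM, the UMIs of a gene for each 1e+06 UMIs of a class of cells in 1 library. Values are written as replicate 1 with replicate 2, with the label WT-Veh first, then ob/ob-Veh, and ob/ob-Rosi last. The members did not share one leading class. Cells like perivascular macrophages (PVM-like, marked by genes such as Lyve1 and Cd163) had the highest mean of Hspa5, Atf4, Atf3 and Dnajb9 in both depots, cells like B cells (BC-like) of Xbp1, and endothelial-like (EC-like) cells of Trib3 among classes counted in at least 4 libraries. Classes come from clusters of the same cells, with the members left out of the clustering genes, so differences between classes are given as a description.

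Hspa5 (BiP, the main ER chaperone, which also holds the sensors inactive) lies on chromosome 2 at 34771970 to 34777547 of GRCm38 in the GENCODE annotation. That interval begins before the RefSeq start from which the promoter window was counted, so the stretch of Hspa5 shown lies inside it, and so does that of Atf3 inside the GENCODE gene. In eWAT PVM-like cells it was at 1049 with 663, 1099 with 629 and 1011 with 460.4 CPM, where the groups overlapped. In iWAT PVM-like cells it was at 1392 with 619.9, 1124 with 1009 and 920.0 with 547 CPM, and there both ob/ob-Rosi values were below both ob/ob-Veh values. The mean over 6 libraries was 818.5 ± 267 CPM (SD) in eWAT and 935.5 ± 316 in iWAT, and EC-like cells were lowest at 359 ± 89.0 and 360.3 ± 165. Only 1 of 10 neighbouring pairs of classes in eWAT and 0 of 10 in iWAT kept this order in every library.

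Dnajb9 (ERdj4, a co-chaperone of BiP that helps to turn IRE1 off) had its highest mean in PVM-like cells. In eWAT they held 274 with 232, 305 with 352 and 251 with 183 CPM, all above the next class mean of 88.7 ± 59.4 in mesothelial-like cells, with both ob/ob-Veh libraries highest, though the top mesothelial-like library reached 205. In iWAT they held 304 with 357, 102 with 227 and 294 with 222 CPM, and here ob/ob-Veh replicate 1 was lowest, below the next class mean of 106 ± 15.4 in neutrophil-like cells. Against the mean of the other classes the fitted log2 difference was 2.16 (SE 0.09) in eWAT and 1.76 (SE 0.11) in iWAT.

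Herpud1, which helps to clear misfolded protein from the ER, was highest in eWAT in BC-like cells at 339.8 with 195, 233 with 353 and 175 with 103 CPM, where both ob/ob-Rosi values were lowest. In iWAT it was highest in PVM-like cells at 124 with 190.1, 191 with 285 and 162 with 149 CPM, with ob/ob-Veh highest by a small margin. Sdf2l1, an ER lumen protein that works with BiP, was highest in eWAT in BC-like cells at 204 with 97.6, 168 with 87.3 and 87.3 with 74.7 CPM, with both ob/ob-Rosi values below those of WT-Veh. Its highest iWAT class was cells like non-perivascular macrophages (NPVM-like, marked by genes such as Ear2 and Ccr2) at 40.6 with 111, 50.8 with 56.1 and 75.1 with 83.2 CPM, where the WT-Veh values spanned the rest. EC-like cells had log2 differences for Sdf2l1 of -1.56 (SE 0.16) in eWAT and -2.08 (SE 0.29) in iWAT. The eWAT BC-like sums under ob/ob-Rosi held 30 and 51 cells, with 68743 and 107044 UMIs of all genes. The low Herpud1 and Sdf2l1 values there rest on few UMIs.

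Xbp1, the factor activated by IRE1 and needed for antibody secretion, was highest in eWAT BC-like cells at 427 with 246, 346 with 681 and 364 with 224 CPM, where the groups overlapped. The plasma cell markers (Jchain, Mzb1 and 6 others) summed to between 1037 and 81380 CPM in these cells, and the part of plasma cells in the Xbp1 level was not tested. The BC-like mean was 381 ± 165 CPM in eWAT and 263 ± 315 in iWAT, and the fitted log2 difference from other classes was 1.68 (SE 0.12) in eWAT against 0.08 (SE 0.23) in iWAT. Preadipocyte-like cells came next, at 214 ± 55.0 and 213 ± 56.1 CPM.

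Atf4, translated when PERK or related kinases act, was highest in PVM-like cells, at 321 with 359, 775 with 585 and 336 with 333 CPM in eWAT with both ob/ob-Veh libraries on top. In iWAT it was at 445 with 517, 399 with 384 and 395 with 412 CPM, and both WT-Veh libraries were on top. Atf3, a stress-induced factor downstream of ATF4, was at 619 with 810.4, 679 with 564 and 629 with 659 CPM in eWAT PVM-like cells, where the groups overlapped. LAM-like cells were next for Atf3, with means of 425 CPM in eWAT and 422 in iWAT.

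Ddit3 (CHOP), a factor tied to cell death under long stress, was highest in eWAT in PVM-like cells at 101 with 96.5, 156 with 83.3 and 121 with 73.6 CPM, with overlapping groups. In iWAT neutrophil-like cells led, with 143 and 138 CPM under WT-Veh and 162 and 152 under ob/ob-Rosi, while the 5 and 6 such cells under ob/ob-Veh were too few to count. PVM-like cells followed at 120 ± 16.3 CPM.

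Trib3, a pseudokinase induced by ATF4 and CHOP, and Chac1, an enzyme that breaks down glutathione, were rare, with 2818 and 286 UMIs in all. In EC-like cells Trib3 was at 5.44 with 8.36, 7.61 with 14.3 and 12.5 with 14.9 CPM in eWAT and 4.40 with 9.88, 20.4 with 14.9 and 14.7 with 18.8 CPM in iWAT. The WT-Veh values were below the ob/ob-Rosi values in both depots. But in iWAT 82.6% of the EC-like cells under WT-Veh came from cluster 9 and 99.8% of those under ob/ob-Rosi from cluster 10. The iWAT EC-like sums, with 208 cells in WT-Veh replicate 1, leave out unnamed clusters 3 and 20. Cluster 3 held 1758 WT-Veh cells and shared the leading genes Npr3, Btnl9 and Rbp7 with cluster 9. Cluster 20 held 513 ob/ob-Rosi cells and shared Tmem252, C1qtnf9 and Aqp1 with cluster 10. Cells like lymphatic endothelium, counted in 3 eWAT libraries, held 41.9 CPM in WT-Veh replicate 1 and 36.3 and 60.1 CPM in ob/ob-Veh, on 34 UMIs. PVM-like cells were lowest for Trib3 in eWAT at 0.671 ± 0.421 CPM.

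Chac1 was highest in eWAT in mesothelial-like cells, from the lining of the body cavity, at 13.6 with 0, 7.23 with 6.51 and 4.21 with 11.9 CPM on 68 UMIs. In iWAT EC-like cells held 55 UMIs, the only class of either depot where Chac1 passed the filter for tests between labels. The highest iWAT mean was in neutrophil-like cells, but on 2 UMIs of 1 library. In iWAT NPVM-like cells and cells like NK and T cells (NKT-like) 0 UMIs were found, which allows levels of up to 0.264 and 0.242 CPM over all 6 libraries (3 UMIs, counting error only).

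Differences between classes were about as common among the members as among all genes. Of 120 member and class pairs in eWAT, 65 (54.2%) passed the edgeR test against the other classes, beside 50.9% of all pairs. In iWAT it was 44 of 99 (44.4%) beside 43.8%.

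**Figure D1:**
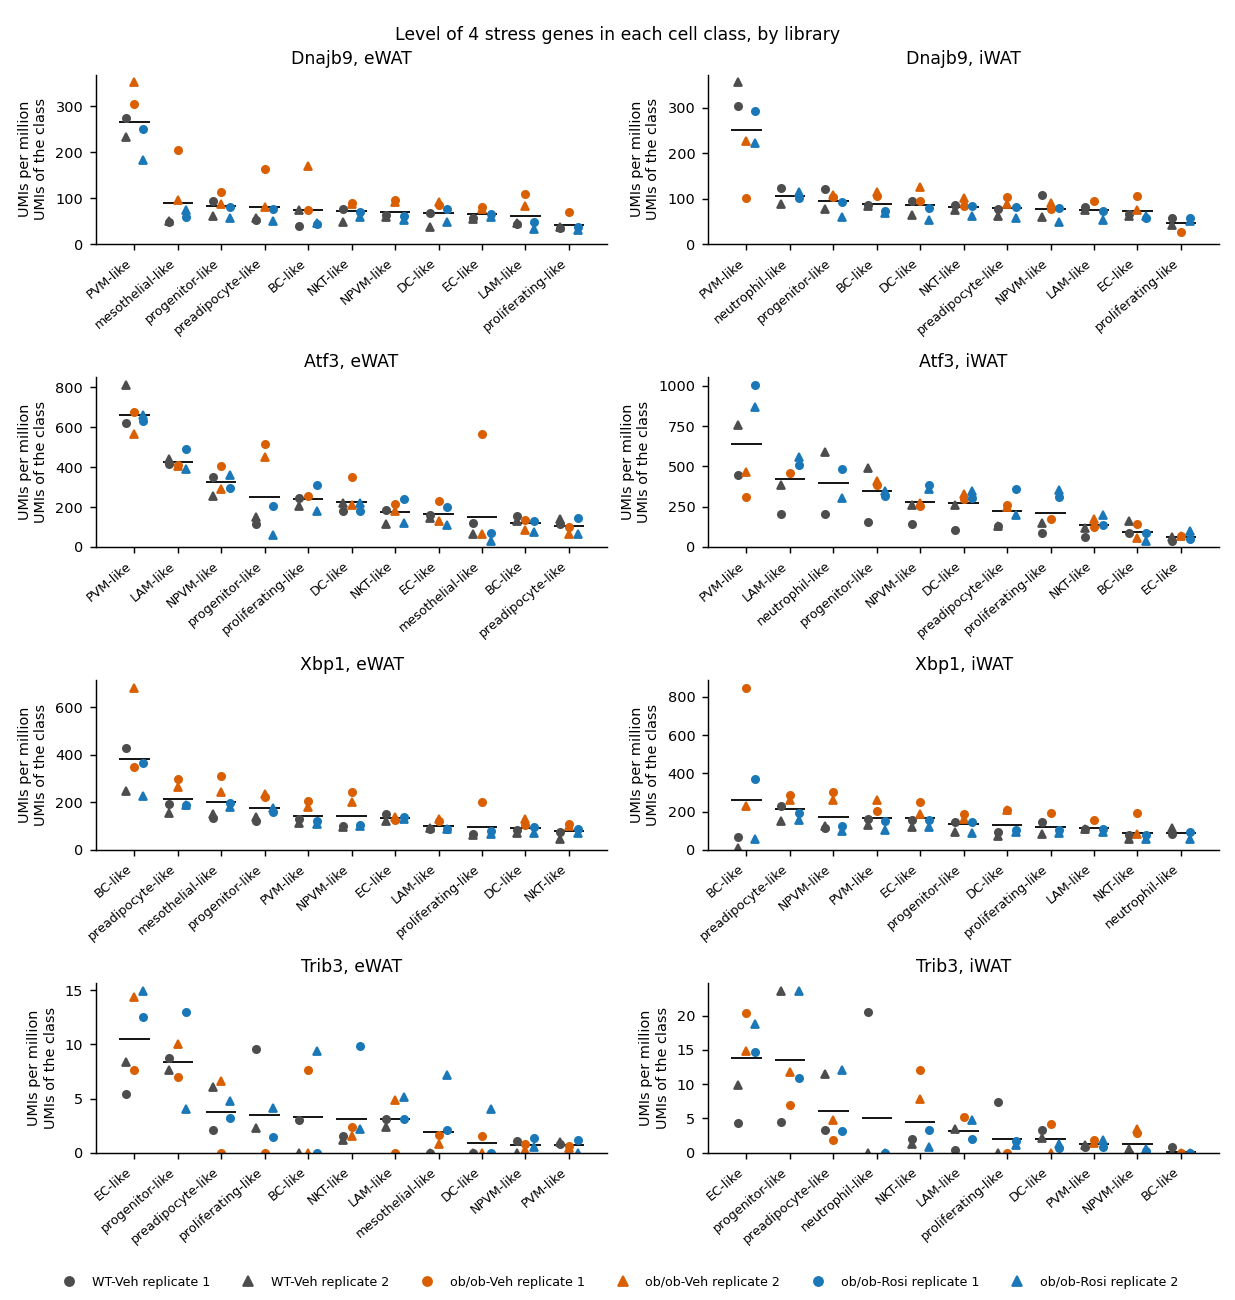
Levels of Dnajb9, Atf3, Xbp1 and Trib3 (CPM, linear axes) in the classes of eWAT and iWAT counted in at least 4 libraries. Points are single libraries, coloured by label with circles for replicate 1 and triangles for replicate 2, and bars are means. PVM-like cells have the highest Dnajb9 means, 266 and 251 CPM, with 1 iWAT library as low as 102, and EC-like and progenitor-like cells have the highest Trib3 means among the classes shown.

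Adipocyte progenitor cells (APCs) were split into progenitor-like cells (markers such as Pi16 and Dpp4) and preadipocyte-like cells (such as Col15a1 and Pparg). Different clusters filled these classes under different labels. In eWAT, subclusters 9 and 10 held 56.4% and 40.3% of the progenitor-like cells under ob/ob-Veh, while subclusters 0 and 2 held 58.1% and 39.0% under WT-Veh. Subcluster 2, with 43.4% under ob/ob-Rosi, was led by Cpxm2, Mfap4 and Myoc. Its score on the progenitor markers was 0.03, beside 1.297, 1.295 and 0.62 for subclusters 0, 9 and 10. Clusters led by the same genes stayed unnamed at clustering resolution 2 and with lenient cluster names. In iWAT, where subclusters are numbered apart, subcluster 7 held 114 of the 129 progenitor-like cells of WT-Veh replicate 1. In replicate 2 subclusters 5 and 8 held 782 and 1149 of 1947. Under ob/ob-Rosi these counts were 733 of 884, then 1260 and 2017 of 3309. Under ob/ob-Veh subclusters 9 and 10 held 63.6% and 36.0%. The part of these mixes in the progenitor-like differences was not tested. The eWAT preadipocyte-like class had only 37 and 41 cells under ob/ob-Veh. An APC-leaning cluster of 3901 cells, 1861 and 1915 of them from these libraries, stayed unnamed. Where it is counted as APC-like below, the APC-like cells were split anew. A subcluster led by Il6, Adamts4 and Rnd1, with 804 and 372 ob/ob-Veh cells, then fell in neither class. Progenitor-like cells under WT-Veh then numbered 200 and 125, against 351 and 272.

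Hspa5 in eWAT was at 687 with 358, 1138 with 491 and 854 with 379 CPM in progenitor-like cells and 617 with 348, 1401 with 657 and 763 with 366 CPM in preadipocyte-like cells. In iWAT it was at 869.8 with 426, 1284 with 540.5 and 711 with 410.3 CPM and 716 with 297, 1515 with 465 and 633 with 336 CPM in the same classes. Replicate 1 was above replicate 2 in all 12 pairs. The WT-Veh and ob/ob-Veh ranges were separate only in eWAT preadipocyte-like cells, which numbered 37 and 41 under ob/ob-Veh. With the unnamed APC-leaning cluster counted as APC-like, they numbered 840 and 940 there and the ranges overlapped. Hspa5 was then at 620 with 348 CPM under WT-Veh and 1047 with 517 under ob/ob-Veh.

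Xbp1 was higher in both ob/ob-Veh libraries than in the other 4 in each APC class of each depot. In eWAT it was at 120.5 with 137, 224 with 236 and 157 with 174 CPM in progenitor-like and 194 with 154, 298 with 265 and 188 with 187 CPM in preadipocyte-like cells. In iWAT it was at 147 with 91.1, 188 with 163 and 143 with 86.6 CPM and 230.2 with 153, 289 with 261 and 193 with 154 CPM. None of the 4 ob/ob effects passed the test, and the nearest was eWAT progenitor-like cells at log2 0.82 (SE 0.26, edgeR adjusted p = 0.102). That effect was called with the replicate block (0.82, edgeR adjusted p = 0.0425) and by DESeq2 (0.83, DESeq2 adjusted p = 0.0318). With the unnamed APC-leaning cluster counted as APC-like, it was 0.73 (edgeR adjusted p = 0.1515).

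Atf4 had the same order in eWAT, at 135 with 164, 306 with 289 and 173 with 118 CPM in progenitor-like and 148 with 168, 226 with 305 and 174 with 137 CPM in preadipocyte-like cells. In progenitor-like cells its log2 ob/ob effect of 0.99 (SE 0.29, edgeR adjusted p = 0.0730) and Rosi effect of -1.01 (SE 0.29, edgeR adjusted p = 0.0685) missed the threshold. Both were called with the replicate block (0.96 and -1.02, edgeR adjusted p = 0.0182 and 0.0111) and by DESeq2 (0.99 and -1.0, DESeq2 adjusted p = 0.0229 and 0.0205). Counting the unnamed APC-leaning cluster as APC-like, a choice made after seeing the data, gave effects of 0.49 and -0.59. Their edgeR adjusted p was then 0.378 and 0.384. In iWAT Atf4 was not in this order, at 259 with 299.8, 278 with 264 and 207 with 228 CPM and 316 with 228, 206 with 224 and 239.7 with 222 CPM. Atf3 in iWAT was at 152 with 488, 382 with 407 and 317 with 347 CPM in progenitor-like cells, where WT-Veh spanned the other labels, and 131 with 129.8, 261 with 251 and 356 with 199 CPM in preadipocyte-like cells, where WT-Veh was lowest. Ddit3 lay between 36.1 and 69.0 CPM in all 12 progenitor-like sums and between 26.5 and 81.3 in the 12 preadipocyte-like sums.

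The remaining members are given by their ranges in these cells. Dnajb9 lay between 50.8 and 163 CPM, with its highest value on 18 UMIs. Herpud1 lay between 67.6 and 164 CPM and Sdf2l1 between 5.67 and 62.2. Trib3 in iWAT progenitor-like cells was at 4.47 with 23.5, 6.92 with 11.7 and 10.9 with 23.5 CPM, with replicate 2 above replicate 1 each time. The replicates of WT-Veh and of ob/ob-Rosi drew on different subclusters there, and the part of this was not tested. Chac1 stayed at or below 0.694 CPM.

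Few member changes between labels were called. Calls are those of edgeR's quasi-likelihood test at an adjusted p of 0.05 with a minimum of 1.1-fold. In eWAT 2 of 84 member and class pairs (2.38%) were called for the ob/ob effect, both higher, beside 3.02% of all pairs, and 3 of 84 (3.57%) for the Rosi effect, all lower, beside 2.69%. With the replicate block edgeR called 9 (10.7%) and 8 (9.52%) of the 84 pairs, beside 7.29% and 6.47% of all pairs, and DESeq2 called 6 and 6 (7.14% each), beside 3.41% and 3.08%. In iWAT 3 of 69 (4.35%) were called for the ob/ob effect, 2 of them higher, beside 3.47%, and 3 of 69 (4.35%) for the Rosi effect, 2 of them higher, beside 6.77%.

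With ob/ob-Rosi set against the lean label, edgeR called 0 of 93 pairs in eWAT and 0 of 91 in iWAT, beside 0.0404% and 0.176% of all pairs. An unadjusted p under 0.05 was found for 2 and 6 of them (2.15% and 6.59%, beside 2.99% and 4.37% of all pairs), and DESeq2 called 0 in both depots. The difference of an effect between depots was called by edgeR for 0 of 68 pairs for the ob/ob effect and 0 of 68 for the Rosi effect, beside 0.394% and 0.171% of all pairs. For 8 and 8 of those the unadjusted p was under 0.05 (11.8% each, beside 8.71% and 9.12% of all pairs).

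Libraries of the same label and replicate number also deviated together between the depots. For WT-Veh, which enters each ob/ob effect, the correlation was only 0.215 and the data did not single out this pairing. Pairing the libraries as a block, a fit added after the data were seen, moved the depot difference to 9 calls. These were 5 for the ob/ob effect (7.35%), beside 2.36% of all pairs, and 4 for the Rosi effect (5.88%), beside 2.30%. Differences are written as eWAT minus iWAT on the log2 scale. In PVM-like cells the block called Atf4 (1.39 and -1.17 for the ob/ob and Rosi effects, edgeR adjusted p = 0.00868 and 0.0373), Dnajb9 (1.59 and -1.47, edgeR adjusted p = 0.0121 and 0.0308) and Atf3 for the Rosi effect (-1.36, edgeR adjusted p = 0.0465). In progenitor-like cells it called Atf4 for the ob/ob effect (1.16, edgeR adjusted p = 0.0400) and Atf3 for the Rosi effect (-1.93, edgeR adjusted p = 0.00953). Atf3 in preadipocyte-like cells (-1.87, edgeR adjusted p = 0.0179) and Xbp1 in BC-like cells (-2.92, edgeR adjusted p = 0.0105) were called for the ob/ob effect. Those rest on 37 and 41 cells under eWAT ob/ob-Veh and on 20 and 53 under iWAT ob/ob-Veh. Atf3 in these eWAT cells lay between 66.3 and 146 CPM in 6 libraries. With the unnamed APC-leaning cluster counted as APC-like, it was at 118 with 142 CPM under WT-Veh and 281 with 267 under ob/ob-Veh. Its eWAT ob/ob effect was then 0.99 (edgeR adjusted p = 0.101), on 840 and 940 cells under ob/ob-Veh. The depot difference was not fitted with that naming. Without the block the adjusted p of these 9 differences was between 0.0792 and 0.59 by edgeR. A sum over a class does not show whether more cells held an RNA or each cell held more of it.

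In eWAT the block added calls outside the APC-like cells too. In mesothelial-like cells Hspa5 was at 533 with 323, 1676 with 444 and 744 with 352 CPM, Xbp1 at 134 with 151, 312 with 244 and 198 with 178 CPM and Dnajb9 at 48.5 with 50.9, 205 with 95.1 and 59.0 with 73.8 CPM. Both ob/ob-Veh libraries were above both WT-Veh libraries for Xbp1 and Dnajb9, while the Hspa5 ranges overlapped. Their blocked log2 ob/ob effects were 1.01, 0.88 and 1.45 (edgeR adjusted p = 0.0300, 0.0276 and 0.0107), against 1.25, 0.90 and 1.54 without the block (edgeR adjusted p = 0.229, 0.0813 and 0.0605). Atf3 in the same cells was at 118 with 62.7, 565 with 63.1 and 67.4 with 30.9 CPM, with overlapping groups and a blocked Rosi effect of -2.23 (edgeR adjusted p = 0.00804, against 0.156 without the block). Immediate early genes summed there to 3617 and 2501 CPM, then 10040 and 3528, then 2370 and 1571. Macrophage markers summed to 3155 and 1722 CPM, then 482 and 495, then 2026 and 1994, and median mitochondrial shares were 3.90% and 2.77%, then 5.32% and 6.16%, then 3.89% and 4.14%. The part of these was not tested.

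In PVM-like cells Atf4, with the levels given above, had blocked effects of 0.89 and -0.89 (edgeR adjusted p = 0.0263 and 0.0283, against 0.0685 and 0.0792). Cluster 19 held 97.2% of those cells under ob/ob-Veh and cluster 0 held 99.5% and 97.7% under WT-Veh and ob/ob-Rosi, and immediate early genes summed there to 16930 and 20650 CPM, then 35180 and 27460, then 18020 and 18430. Adipocyte transcripts summed to 5.47 and 6.92 CPM, then 35.3 and 41.4, then 3.77 and 3.05. Macrophage markers summed to 24860 and 26510, then 14060 and 17250, then 23160 and 28640, and median mitochondrial shares were 3.36% and 3.51%, then 6.55% and 6.28%, then 5.54% and 3.92%. How far these bear on Atf4 was not tested. DESeq2 called both Atf4 effects as well, and it called Dnajb9 in mesothelial-like cells (DESeq2 adjusted p = 0.0429). In EC-like cells Herpud1 was at 60.9 with 137, 182 with 172 and 153 with 222 CPM, with WT-Veh lowest and a blocked ob/ob effect of 0.79 (edgeR adjusted p = 0.0409, against 0.234). Atf4 there was at 190.3 with 176, 322 with 242 and 136 with 152 CPM, with ob/ob-Veh highest and a blocked Rosi effect of -0.89 (edgeR adjusted p = 0.0109, against 0.0754). DESeq2 also called this last effect (DESeq2 adjusted p = 0.0439). Adipocyte transcripts in these EC-like cells summed to 42.4 and 39.0 CPM, then 1002 and 736, then 23.2 and 20.5. Macrophage markers summed to 4353 and 3462, then 1825 and 1134, then 5263 and 4099. Median mitochondrial shares were 2.95% and 3.04%, then 4.15% and 5.87%, then 3.42% and 3.57%. The part of these in the Herpud1 and Atf4 differences was not tested.

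**Figure D2:**
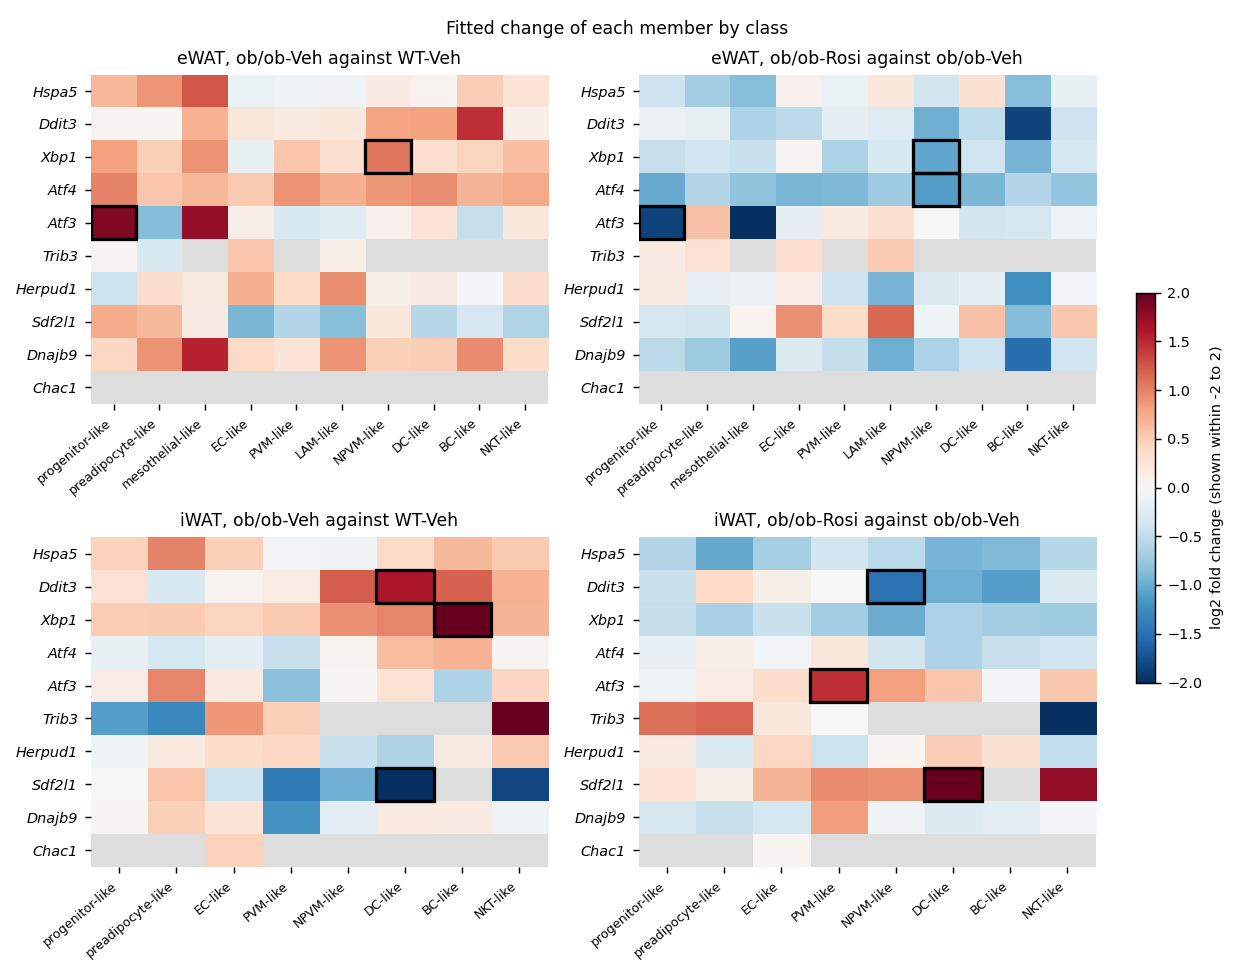
Fitted log2 fold changes of the 10 members (rows) in each class (columns), for the ob/ob effect and the Rosi effect in eWAT and iWAT, on a colour scale from -2 to 2. Gray cells were not tested and black boxes mark calls, of the fit without a replicate block, of which there are 2 and 3 in eWAT and 3 and 3 in iWAT.

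Atf3 in eWAT progenitor-like cells was at 116 with 152, 516 with 450.5 and 204 with 58.4 CPM. Both ob/ob-Veh libraries lay above the other 4. The log2 ob/ob effect was 1.85 (SE 0.43, edgeR adjusted p = 0.0234) and the log2 Rosi effect -1.84 (SE 0.43, edgeR adjusted p = 0.0260). The call for the ob/ob effect was lost without WT-Veh replicate 1 (log2 1.73) or 2 (2.02), and that for the Rosi effect without WT-Veh replicate 1 (-1.86) or 2 (-1.85) or ob/ob-Rosi replicate 2 (-1.23). Without ob/ob-Rosi replicate 1 the Rosi effect was -3.07. With the unnamed APC-leaning cluster counted as APC-like, a choice made after seeing the data, the APC-like cells were split anew. The effects were then 0.79 (edgeR adjusted p = 0.283) and -0.61 (edgeR adjusted p = 0.517). The Rosi effect on Atf3 in preadipocyte-like cells was then called (-1.29, edgeR adjusted p = 0.0376). That split left a subcluster led by Il6, Adamts4 and Rnd1, with 804 and 372 ob/ob-Veh cells, out of both classes. Its part in the changed effects was not tested.

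Other transcripts and the depth moved with Atf3 in these cells. The 14 listed immediate early genes, which tissue digestion is known to raise, summed to 6793 and 7150 CPM under WT-Veh, 23150 and 20630 under ob/ob-Veh, and 8989 and 4473 under ob/ob-Rosi. Median UMIs per cell were 1595 and 4450, then 7532 and 5325, then 2402 and 3298. Macrophage markers summed to 1467 and 1170 CPM, then 194 and 395, then 1373 and 1432. Subcluster 10, found mostly under ob/ob-Veh, was led by Ptgs2 and Il6. The part of these in the Atf3 difference was not tested.

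In eWAT NPVM-like cells 2 members were called. Xbp1 was at 98.8 with 96.8, 244 with 199 and 106 with 99.4 CPM, with both ob/ob-Veh libraries above the other 4. Its log2 ob/ob effect was 1.06 (SE 0.26, edgeR adjusted p = 0.0315) and its log2 Rosi effect -1.04 (SE 0.26, edgeR adjusted p = 0.0252). The ob/ob call was lost without any 1 of the WT-Veh or ob/ob-Veh libraries (log2 0.83 to 1.26), and the Rosi call without either ob/ob-Veh library or ob/ob-Rosi replicate 2 (-1.25 to -0.80).

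Atf4 in the same cells was at 207 with 189.9, 460.2 with 317 and 165 with 178 CPM, again with ob/ob-Veh highest. Its log2 Rosi effect was -1.12 (SE 0.28, edgeR adjusted p = 0.0265), lost when ob/ob-Veh replicate 1 was left out (-0.74) and when ob/ob-Rosi replicate 2 was (-1.21). Its ob/ob effect of 0.86 was not called. Ddit3 was at 60.0 with 42.8, 119 with 74.4 and 49.1 with 44.9 CPM, with ob/ob-Veh highest, and its Rosi effect was called with the replicate block (-0.92, edgeR adjusted p = 0.0471, against -0.98 and 0.0674 without it). The class drew on clusters 7 (led by Lyz1, Ear2 and Fcrls) and 10 (led by Chil3, Cx3cr1 and Il1b). These held 63.1% and 36.9% of its cells under WT-Veh, 91.2% and 8.85% under ob/ob-Veh, and 56.3% and 43.7% under ob/ob-Rosi. Immediate early genes summed here to 8505 and 9343 CPM, then 17270 and 15090, then 6889 and 8447. Macrophage markers summed to 12350 and 11150 CPM, then 9964 and 10730, then 13780 and 13610. Plasma cell markers summed to 67.2 and 77.3 CPM, then 112 and 117, then 100 and 35.9. Adipocyte transcripts summed to 5.0 and 4.5 CPM, then 7.11 and 12.5, then 4.55 and 1.09. The part of the cluster mix and of these genes was not tested.

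Ddit3 was called in 2 immune classes of iWAT. In cells like dendritic cells (DC-like) it was at 26.8 with 30.4, 129 with 111 and 45.4 with 41.6 CPM, with ob/ob-Veh above the other 4 and a log2 ob/ob effect of 1.63 (SE 0.41, edgeR adjusted p = 0.0291). In NPVM-like cells it was at 56.9 with 48.1, 154 with 145 and 49.8 with 35.8 CPM, with ob/ob-Veh again highest and a log2 Rosi effect of -1.47 (SE 0.31, edgeR adjusted p = 0.0149). The first call was lost without either ob/ob-Veh library (1.38 and 1.61), with DESeq2 (1.54) and at clustering resolution 2 (0.83). The second was lost without any 1 ob/ob-Veh or ob/ob-Rosi library (-1.65 to -1.30). Cluster 23, led by Chil3, Adgre4 and Treml4, held 16.5% of the NPVM-like cells under WT-Veh, 8.27% under ob/ob-Veh and 32.3% under ob/ob-Rosi. Cluster 18, led by Lyz1, Ear2 and Tnip3, held the rest. In these NPVM-like cells immediate early genes summed to 9259 and 12280 CPM, then 19110 and 17820, then 10550 and 9204. Median mitochondrial shares there were 12.3% and 3.33%, then 13.3% and 13.1%, then 3.82% and 2.03%. Median UMIs per cell were 2134 and 4941, then 1792 and 2028, then 3878 and 3946. APC markers summed to 580 and 306 CPM, then 2957 and 2733, then 1348 and 846. The part of these and of the cluster mix in the Ddit3 difference was not tested.

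Sdf2l1 in iWAT DC-like cells moved the other way, at 47.0 with 107, 14.8 with 38.8 and 84.0 with 70.5 CPM, with both ob/ob-Veh libraries lowest. These ob/ob-Veh values are of 471463 and 386656 UMIs of all genes, so they rest on few Sdf2l1 UMIs. The log2 ob/ob effect was -2.07 (SE 0.57, edgeR adjusted p = 0.0409) and the log2 Rosi effect 2.03 (SE 0.57, edgeR adjusted p = 0.0268). The ob/ob call was lost without WT-Veh replicate 2 (-0.996) or either ob/ob-Veh library (-1.63 and -3.00), and the Rosi call without either ob/ob-Veh library (1.62 and 3.00). In DC-like cells APC markers summed to 409 and 435 CPM, then 4558 and 3608, then 940 and 940, and immediate early genes to 6821 and 9199, then 19980 and 18500, then 7993 and 8229. Median mitochondrial shares were 12.1% and 2.43%, then 12.5% and 10.7%, then 3.29% and 1.77%, and median UMIs per cell 2226 and 6139, then 1439 and 1508, then 5642 and 4293. Their part in the Ddit3 and Sdf2l1 differences was not tested. In iWAT PVM-like cells Sdf2l1 was also lowest in both ob/ob-Veh libraries. There DESeq2 called it (-1.46, DESeq2 adjusted p = 0.00391) and Dnajb9 (-1.23, DESeq2 adjusted p = 0.0127) lower for the ob/ob effect. The edgeR fit of the calls above called neither, but after thinning to 700 UMIs it called Sdf2l1 (-1.96, edgeR adjusted p = 0.00675).

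Xbp1 in iWAT BC-like cells was at 64.8 with 9.88, 845 with 229 and 373 with 57.8 CPM, with both ob/ob-Veh libraries above WT-Veh but not above ob/ob-Rosi. The log2 ob/ob effect was 3.30 (SE 0.79, edgeR adjusted p = 0.0249), on 20 and 53 cells under ob/ob-Veh. Those sums held 28405 and 52341 UMIs of all genes, and that of WT-Veh replicate 2 held 202373. The Xbp1 values there rest on few UMIs. The call was lost without ob/ob-Veh replicate 1 (1.99), and the effect moved to 5.05 without WT-Veh replicate 1. Plasma cell markers summed to 116 and 815 CPM, then 3133 and 115, then 6608 and 439. APC markers summed to 985 and 524 CPM, then 5175 and 6954, then 2076 and 2426, and immediate early genes to 5751 and 6058, then 13940 and 9266, then 4141 and 4529. Median mitochondrial shares were 10.3% and 5.04%, then 15.8% and 12.0%, then 5.89% and 3.71%. The part of these was not tested.

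Atf3 in iWAT PVM-like cells was at 447 with 759, 309.8 with 463 and 1004 with 868 CPM, with both ob/ob-Rosi libraries highest. The log2 Rosi effect was 1.46 (SE 0.36, edgeR adjusted p = 0.0429), lost without any 1 ob/ob-Veh or ob/ob-Rosi library (1.25 to 1.72). The PVM-like cells under ob/ob-Veh came to 98.5% from cluster 15, and those under the other labels came mostly from other clusters. Median mitochondrial shares there were 8.24% and 3.69%, then 10.9% and 9.74%, then 4.82% and 2.28%. APC markers summed to 384 and 298 CPM, then 3450 and 2993, then 1228 and 1018, and median UMIs per cell were 3146 and 4706, then 1641 and 1618, then 3464 and 2785. The part of these was not tested.

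**Figure D3:**
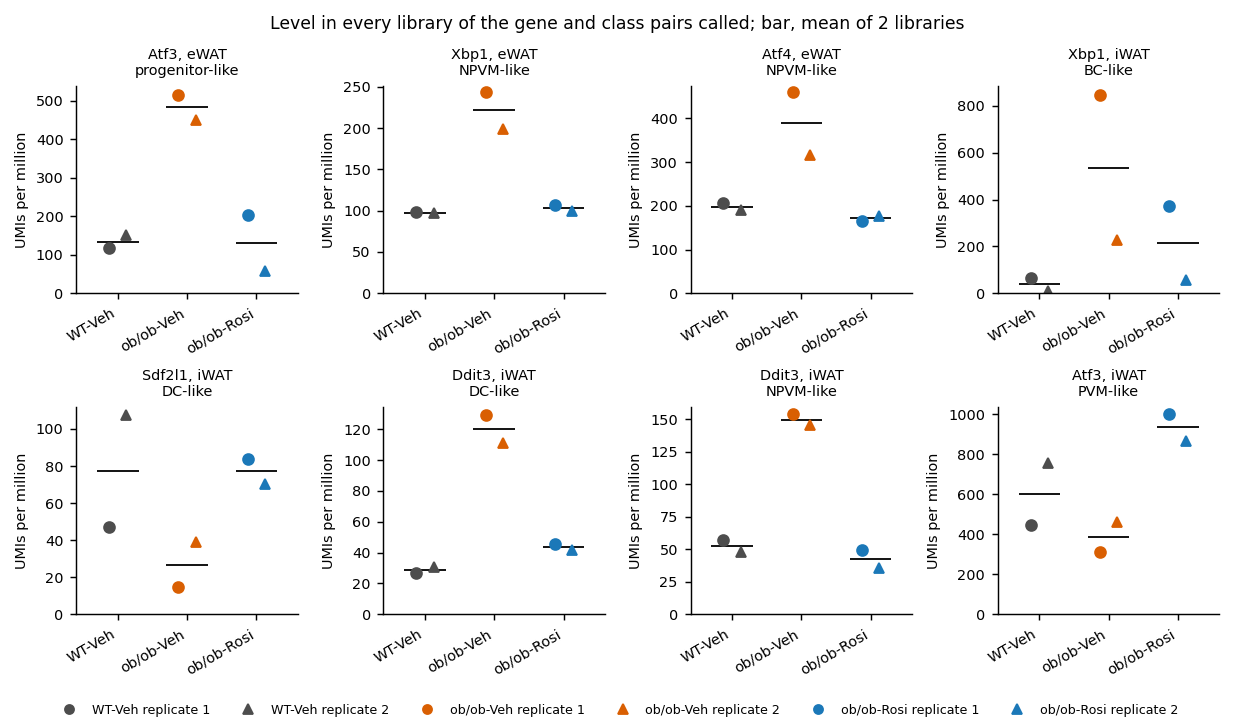
Levels in CPM of the member and class pairs called for the ob/ob effect or the Rosi effect, 1 panel a pair, linear axes. Points are single libraries by label and bars are means of 2 libraries. In eWAT progenitor-like cells Atf3 reaches 516 and 450.5 CPM under ob/ob-Veh, and Sdf2l1 in iWAT DC-like cells is lowest there.

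The order of the libraries was counted over all pairs, called or not. Both ob/ob-Veh libraries were above the other 4 in 33 of 84 member pairs (39.3%) in eWAT, beside 20% of all pairs, and below them in 3 (3.57%), beside 15.3%. In iWAT they were above in 24 of 69 (34.8%), beside 27.9%, and below in 3 (4.35%), beside 13.6%. In eWAT Atf4 and Dnajb9 were above in 9 of 10 classes each and Xbp1 in 8, while Hspa5, with its gap between replicates, was in 0. In iWAT Xbp1 was above in 7 of 8 classes, Ddit3 in 5, Dnajb9 in 4 and Atf4 in 3. These counts carry no test, and the classes of a depot come from the same libraries.

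Hspa5 was mostly higher in replicate 1, and within a replicate number mostly highest under ob/ob-Veh. Over all 63 pairs of libraries that share a class, depot and label, replicate 1 was above replicate 2 in 61, with a median log2 ratio of 0.81. Over all cells it was at 572 and 474 CPM, 1092 and 523, and 738 and 359 in eWAT, and at 715 and 453.5, 1250 and 645, and 631 and 410.4 in iWAT, so within each number ob/ob-Veh was highest in both depots. Taken by class and number, ob/ob-Veh was highest for Hspa5 in 14 of 20 sets in eWAT, beside 42.4% of sets over all genes at 20 CPM or more, and in 14 of 16 in iWAT, beside 48.5%. In eWAT it was highest in 20 of 20 sets for Atf4 and for Dnajb9, 18 for Xbp1, 15 for Ddit3, 12 for Herpud1, 9 for Atf3, 6 for Sdf2l1 and 4 each for Trib3 and Chac1. In iWAT it was highest in 16 of 16 sets for Xbp1, 13 for Ddit3, 11 for Dnajb9, 9 for Atf4 and 8 for Herpud1. It was highest in 7 for Trib3, 4 for Atf3, 3 for Chac1 and 0 for Sdf2l1. For Sdf2l1 ob/ob-Veh was lowest in 11, beside 34.1% of sets over all genes at 20 CPM or more. These counts carry no test. The sets and the 63 pairs are classes of the same libraries, so they are not independent of each other. The 42.4%, 48.5% and 34.1% are shares of sets, not of genes that reach a given count. In iWAT the replicate numbers were not shown to pair libraries of different labels. In the order of replicates, only 0.239% of 6695 genes were ordered as often in 1 direction. The other members had replicate 1 above in 21 to 48 of 63. Of 22 other genes of ER folding, degradation and translocation, 19 were higher in replicate 1 in most pairs and 3 in replicate 2. Their counts ran from 58 of 63 for Hsp90b1, an ER chaperone, down to 25 for Sec61b, a part of the translocon (median 47). The share of all genes higher in replicate 1 in most pairs is not given.

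**Figure D4:**
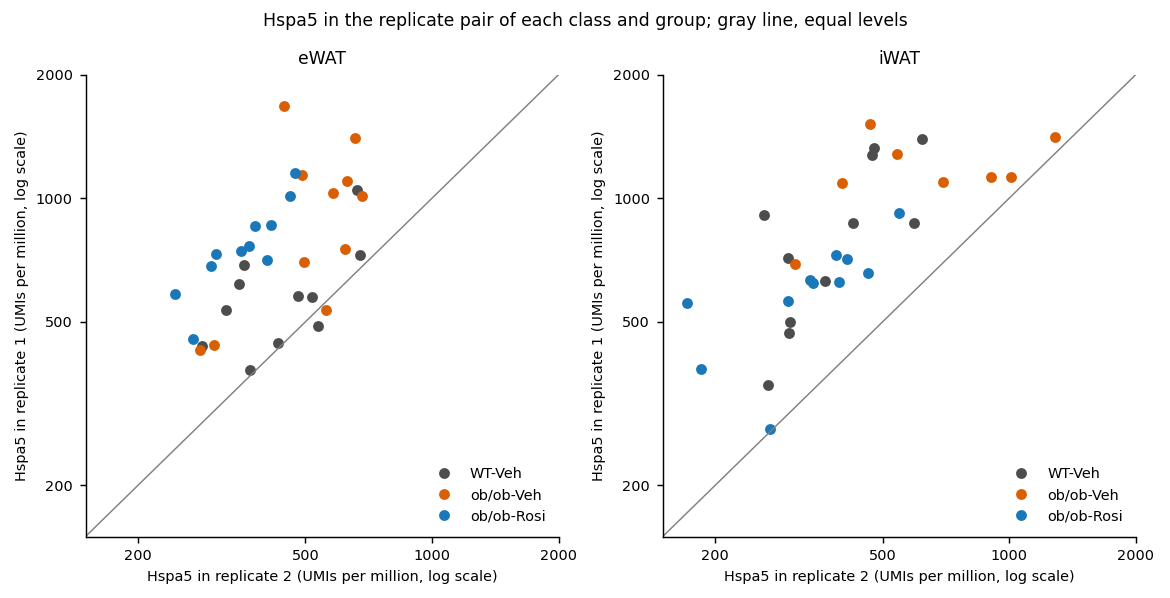
Hspa5 level in replicate 1 against replicate 2 (CPM, both axes log scale), 1 point per class and label, in eWAT and iWAT. The gray line marks equal levels, and 61 of 63 points lie on the side of replicate 1.

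Other genes of the pathway were read in the APC-like classes. Of 22 genes of ER folding, degradation and translocation, edgeR called 0 for either effect in either class and depot, and 0 to 7 of them had an unadjusted p under 0.05. Their fold changes were positive for the ob/ob effect in 19 and 19 of 22 in eWAT progenitor-like and preadipocyte-like cells and in 20 and 20 in iWAT (median log2 0.20, 0.21, 0.43 and 0.58). Of 6 sensors and their proteases edgeR called 0 (0 to 2 at an unadjusted p under 0.05), and 0 of 6 had a positive Rosi effect in iWAT progenitor-like (median -0.76) or preadipocyte-like cells (-0.62). The median of all genes was between -0.20 and 0.21 in these fits. Over all classes, an unadjusted p under 0.05 was found for 18.3% (ob/ob effect) and 16.9% (Rosi effect) of all pairs in eWAT. In iWAT it was 20.6% and 25.8%. These shares are not split by class, and the share of all genes with a positive fold is not given. Of all genes tested, 4.57% and 4.40% were called for the ob/ob and Rosi effects in eWAT progenitor-like cells, 0.2% and 0.133% in eWAT preadipocyte-like cells, 1.42% and 3.35% in iWAT progenitor-like cells and 1.0% and 1.44% in iWAT preadipocyte-like cells.

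Among targets of ATF4 and the integrated stress response, 1 of 21 tested was called higher and 1 lower for the ob/ob effect in eWAT progenitor-like cells. Ppp1r15a (GADD34, which restores translation) was at 132 with 155, 314 with 368 and 137 with 102 CPM, a log2 ob/ob effect of 1.23 and Rosi effect of -1.48. Eif4ebp1, a brake on translation, was at 129 with 149.8, 49.7 with 61.0 and 98.0 with 242 CPM, with effects of -1.35 and 1.62. In iWAT preadipocyte-like cells Psat1, an enzyme of serine synthesis, was at 39.7 with 29.9, 6.31 with 4.40 and 15.9 with 16.4 CPM, an ob/ob effect of -2.69. Nupr1 in eWAT progenitor-like cells had a Rosi effect of 1.09.

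Among APC-like classes, immediate early genes were called most often in eWAT progenitor-like cells, where 9 of 14 were called higher for the ob/ob effect and 9 lower for the Rosi effect, beside the 4.57% and 4.40% of all genes. Socs3, a brake on cytokine signals, was at 110.3 with 199, 1034 with 909 and 107 with 72.0 CPM, with effects of 2.65 and -3.42. Zfp36, which destabilizes mRNA, had effects of 3.16 and -3.06, and Egr1 of 2.22 and -2.16. Of 12 cytosolic heat shock genes, Dnajb1 (1.14) and Bag3 (1.14) were called higher for the ob/ob effect there and Bag3 (-1.09) lower for the Rosi effect.

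In iWAT progenitor-like cells Ier3 was called lower for the ob/ob effect (-1.49), and for the Rosi effect Hspb1 was called higher (2.48) and Zfp36 (-2.28), Hspa1b (-1.79) and Hspa1a (-1.30) lower. Hspa1b was also called lower in iWAT preadipocyte-like cells (-1.88). Hspa1a and Hspa1b are near-identical copies, so the split of reads between them is uncertain. In eWAT preadipocyte-like cells, with their 37 and 41 cells under ob/ob-Veh, edgeR called 0 genes of the lists, with 0 to 5 genes a list at an unadjusted p under 0.05.

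The genes most like Hspa5, Ddit3 and Atf3 were sought over the class sums of a depot, by Pearson's r of log2(CPM + 1). In eWAT (69 sums) the nearest to Hspa5 were Homer1 (0.66), Gm26518, AC160336.1, Dock11 and Rpn1 (0.61), and in iWAT (62 sums) Canx (0.78), Slc5a3, Rpn1, Irf2bp2 and AC160336.1 (0.76). Ddit3 was nearest Rabgef1 (0.72), Dnajb9, Gm16486, Bmp2 and Hspa1a (0.65) in eWAT and Dusp1 (0.77), Tmcc1, Impact, Ccr1 and Sema4a (0.70) in iWAT. Atf3 was nearest Tep1 (0.75), Zfand5, Asah1, Mcl1 and Gltp (0.70) in eWAT and Metrnl (0.74), Ier3, Npc2, Fosb and Hexa (0.70) in iWAT. The sums share libraries and depth, so these are descriptions.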

How the data were processed

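Single-cell RNA libraries of the SVF were read from the deposited count matrices. Per the labels and the study's methods, the authors made these UMI counts with Cell Ranger 3.0.2 on mm10 after bcl2fastq 2.19.1.403; they are raw counts and not normalized. Cells with 700 to 22000 UMIs, 200 to 6000 genes and under 25% mitochondrial UMIs were kept. Each depot was clustered (scanpy 1.11.5, 2000 variable genes without the listed stress genes, 25 components, 20 neighbours, Leiden resolution 1; APC-like cells 15 components, resolution 0.6), and clusters were named from marker lists. Doublets were kept, and were removed in an alternative.

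Counts were summed per library and class (at least 20 cells) and tested in edgeR 4.0.16 (quasi-likelihood, TMM, low-count filter, R 4.3.3) with Benjamini-Hochberg adjustment over all genes of a fit, at 0.05 and 1.1-fold, with 3 residual degrees of freedom where all 6 libraries of a depot entered a comparison of labels without a block, and fewer where a class lacked libraries or the block was used within a depot. With 2 libraries against 2 an exact permutation test cannot go below p = 0.33, so none was used. DESeq2 1.42.0, scaling by library totals, no filter on low counts, a replicate block, thinning to 700 UMIs, other clusterings and leaving out each library were alternatives. Deviations of same-numbered libraries from their group means correlated at 0.439, 0.207 and 0.315 between eWAT groups (6570 genes). Between the depots of a group they correlated at 0.215, 0.594 and 0.61, and between depots at unlike labels at 0.047 to 0.48. The numbers were taken to pair eWAT libraries, and libraries of a group across depots, from these data and not from the labels. The highest value at unlike labels and depots, 0.48, was above each value between eWAT groups, so the data did not single out the eWAT pairing. For WT-Veh the data did not single out the pairing across depots. The labels call the libraries biological replicates but name no animals, so p-values measure the spread between libraries, which may be partly technical.

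Named were all members, each called pair, each member in APC-like classes and its highest class, up to 3 called genes per direction from each other list in APC-like classes, and the 5 genes most like Hspa5, Ddit3 and Atf3 at a mean of at least 5 CPM. Members and lists were chosen with earlier results of these data known. Libraries of a group differed by more than sampling noise (chi-square per gene 101.5 to 597.4). On simulated counts, 26.3% of 2-fold and 94.8% of 4-fold changes were recovered for the eWAT progenitor-like ob/ob effect (9722 genes), and 12.6% and 71.7% for iWAT PVM-like cells (12328 genes).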

Additional observations from a re-analysis of the deposited data

How the results depend on the processing

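With 2 libraries per label, counts of called members moved with the settings. For the ob/ob effect in eWAT (2 members called) the count was 9 without the low-count filter, 9 with a replicate block, 6 with DESeq2, and 1 after thinning, at resolution 2 and with lenient cluster names, a naming chosen after seeing the data. For the Rosi effect in eWAT (3) it was 10, 8 and 6 under the first 3 of these. In iWAT the ob/ob count (3) was 6 without the filter, 5 with the block, and 1 after thinning and at resolution 2, and the Rosi count (3) was 5 without the filter. The comparison of ob/ob-Rosi with WT-Veh in iWAT (0) gave 2 without the filter and 4 with the block, and the depot difference (0) gave 5 without the filter and 9 with a replicate block across depots, added after seeing the data. The cause was not tested. Shares of all pairs are given with the results for the eWAT block, DESeq2 in eWAT and the block across depots. For the other settings and each left-out library they are not given, so those counts cannot be told from a shift of all genes.

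Leaving out 1 library gave 0 to 6 (ob/ob) and 1 to 6 (Rosi) in eWAT, and 0 to 10, 0 to 9 and, against WT-Veh, 0 to 5 in iWAT. The iWAT ob/ob count was 10 without WT-Veh replicate 1 and 0 without ob/ob-Veh replicate 1. The iWAT Rosi count was 0 without either ob/ob-Veh library. The depot difference gave 0 to 1, with 1 without iWAT WT-Veh replicate 1. Calls between classes stayed at 99 to 110, but were 84 after thinning. The eWAT progenitor-like Atf3 calls were also lost at resolution 2 (log2 1.19 and -1.34), and the iWAT BC-like Xbp1 call there (3.35). Thinning ended the calls of Xbp1 in eWAT NPVM-like (1.09 and -1.19) and iWAT BC-like cells (2.57) and of Sdf2l1 (-1.21 and 1.57) and Ddit3 (1.79) in iWAT DC-like cells. Library totals ended those of Sdf2l1 (-1.62 and 1.54) and of Atf3 in iWAT PVM-like cells (1.28). No called pair reversed under these alternatives. The other members in APC-like classes were not followed through all of them.

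In eWAT, where the replicate numbers were taken to pair the libraries, the block ended no call and added the calls given with the results. It changed no other call. In iWAT they were not shown to pair them (correlations -0.069, 0.655 and -0.165), so the block is given only here.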

Other observations

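Other transcripts were split by replicate number as Hspa5 was, and were picked after their values were seen. Replicate 1 was above replicate 2 in 63 of 63 pairs for Gm42418 (median log2 ratio 4.11) and mt-Atp8 (3.05) and in 62 for Lars2. Cirbp, a cold-inducible RNA-binding protein, was above in replicate 2 in 62 of 63 (median log2 ratio -1.09), and Rbm3, another, in 61. These are values with no test.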
